A study of Homo sapiens with 12 samples.

Results

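DHRS2, which encodes a short-chain dehydrogenase/reductase, was followed across 4 treatments of CAMA-1 cells by 3′ RNA sequencing. It is 1 gene among 60612 named gene rows and among the 11803 genes with enough reads to be tested. It was chosen by its measured response in these same libraries, high after abemaciclib and low when fulvestrant was also present, so its levels and fold changes are given as a description, with no test. CAMA-1 is an established line of human luminal breast cancer cells, positive for the oestrogen receptor (ER) and labelled wild-type. Cells received the DMSO vehicle, the CDK4/6 inhibitor abemaciclib at 100 nM, fulvestrant, which degrades the ER, at 5 nM, or the pair of drugs together, with 3 libraries in each group and 12 in all. Doses within the combination are not repeated in the labels. All groups came from this single line and shared the same culture medium.

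DHRS2 belongs to a large family of enzymes that reduce carbonyl groups, or run the reverse oxidation, with an NAD(P) cofactor. Their substrates include steroids, retinoids and reactive dicarbonyl compounds. DHRS2 is known as a gene switched on when cells stop dividing or are exposed to histone deacetylase inhibitors. DHRS2 has also been described as a target of the transcription factor MYB in ER-positive breast cancer cells, and its protein as a partner of MDM2, the ubiquitin ligase that controls p53.

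The libraries held between 3299119 and 5164667 counts, and levels are given as CPM, the reads of a gene scaled to a common library size. All 9 luminal epithelial markers, among them ESR1, GATA3 and KRT8, passed the filter on low counts. Their summed level was 6496 to 6835 CPM in DMSO, 7906 to 7993 CPM with abemaciclib, 7907 to 8572 CPM with fulvestrant and 7514 to 8240 CPM with both. None of the 4 basal and 5 immune markers passed it. Of the 5 stromal markers, 3 had no read and 2 passed. Their summed level was 17.8 to 21.7 CPM in DMSO, against 25.0 to 32.1 CPM with abemaciclib, 28.5 to 37.0 CPM with fulvestrant and 23.7 to 27.9 CPM with both. Mitochondrial transcripts took 12.0% to 12.6% of counts in DMSO, 17.4% to 18.6% with abemaciclib, 17.2% to 20.6% with fulvestrant and 15.6% to 19.2% with both drugs. The luminal sum, the stromal sum and the mitochondrial share were thus higher in every treated group, and their part in the level of DHRS2 was not tested. With mitochondrial transcripts left out its log2 fold change under abemaciclib was 3.12, the same value as with them in. In bulk libraries, more RNA per cell and more cells with the RNA cannot be told apart.

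DHRS2 lies on chromosome 14 at chr14:23630115-23645639 (GRCh38, plus strand) and spans 15525 bases. The annotation lists 10 transcripts, of which 3 carry a consensus coding sequence. No other annotated gene overlaps DHRS2 on either strand, and 2 transcripts begin at the gene start. Because 7 of the 10 transcripts end within 10 bases of the gene end and the libraries were primed at the 3′ end, the counts do not tell which start was used. The 250 bases before the gene start are shown because they are the sequence next to the first annotated start of the gene that rose. They are read on the plus strand of GRCh38 from chr14:23629865-23630114, and capitals mark a match to the TATA box. The 2 transcripts that begin there carry no consensus coding sequence, and those that do begin further downstream, where the sequence was not used here.
DHRS2 upstream window: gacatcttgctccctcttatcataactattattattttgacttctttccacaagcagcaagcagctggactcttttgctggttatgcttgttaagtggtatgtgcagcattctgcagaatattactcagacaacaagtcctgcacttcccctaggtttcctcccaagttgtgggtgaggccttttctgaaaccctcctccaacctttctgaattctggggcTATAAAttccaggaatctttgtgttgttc

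The upstream window of DHRS2 held a TATA box (TATAAA) 29 bases before the start, a motif found in 6.8% of the 35116 promoter windows of the same length on the gene's strand. It did not hold the oestrogen response element half-site GGTCA (32.6% of promoters), the E2F letters TTTCCCGC, TTTGGCGC, TTTCGCGC or TTTGCCGC (2.8%), the CHR element TTTGAA (13.3%), the short MYB core AACNG (70.6%) or the CCAAT box (32.0%) on either strand. G and C made up 43.2% of its bases, against a median of 58.0% over all promoters, and it had 0 CpG dinucleotides, which 93.9% of promoters contained. A match describes letters in the sequence and was not tied to binding of a factor.

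In untreated cells DHRS2 was a low-abundance transcript. The DMSO libraries held 2.08, 4.56 and 3.72 CPM, from 7, 24 and 18 reads. Their mean was 3.45 ± 1.26 CPM (SD, n = 3), which placed DHRS2 at rank 10463 of the 11803 genes tested, from the highest level down. Because each transcript is primed once near its 3′ end, this ranking needs no correction for gene length.

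After abemaciclib the level was 37.4, 30.2 and 26.8 CPM, from 187, 137 and 106 reads. Every abemaciclib library was above every library of the other 3 groups, and the lowest of them, 26.8 CPM, had an exact 95% counting interval of 21.9 to 32.4 CPM, which covers counting error only. The mean of 31.5 ± 5.42 CPM (SD, n = 3) placed DHRS2 at rank 5037, in the middle of the expressed genes. The log2 fold change over DMSO was 3.12 ± 0.25 (SE), or 8.70-fold, the 12th highest of all genes tested.

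Fulvestrant alone left DHRS2 at 8.15, 7.90 and 6.84 CPM, from 33, 28 and 30 reads. All 3 libraries were above the highest DMSO library, and their mean was 7.63 ± 0.70 CPM (SD, n = 3). The log2 fold change over DMSO was 1.07 ± 0.30 (SE), or 2.10-fold, which ranked 878th from the top. The name given to DHRS2 as a gene blocked by fulvestrant therefore describes the response to abemaciclib and not the basal level, which was higher with fulvestrant than with vehicle.

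With both drugs the level was 4.33, 3.93 and 8.16 CPM, from 18, 19 and 42 reads. Replicates 1 and 2 lay within the DMSO range, and replicate 3 lay level with the highest fulvestrant library. The mean was 5.47 ± 2.33 CPM (SD, n = 3), or 17.4% of the mean under abemaciclib alone. Against abemaciclib the log2 fold change was −2.50 ± 0.23 (SE), a 5.67-fold lower level and the 223rd lowest of all genes. Against DMSO it was 0.62 ± 0.31 (SE), and without combination replicate 3 it was 0.19.

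The order of the levels was DMSO, combination, fulvestrant and abemaciclib. The DMSO and combination libraries overlapped, as did the combination and fulvestrant libraries, so the place of the combination in this order was not settled. The overlap with fulvestrant came from combination replicate 3 alone. The fulvestrant and abemaciclib groups did not overlap, with a 4.13-fold difference of their means.

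**Figure D1:**
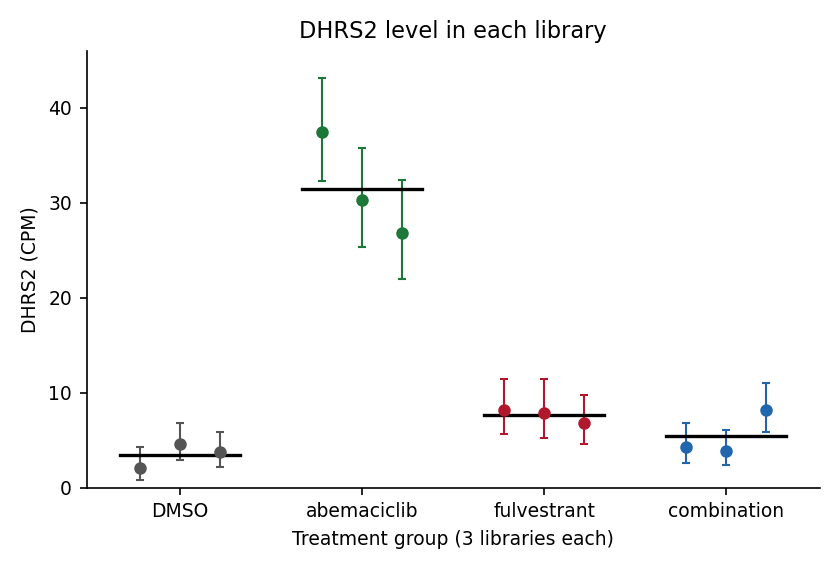
DHRS2 level in CPM (vertical axis) in each of the 3 libraries of the 4 treatment groups (horizontal axis). Points are libraries, vertical bars are exact 95% counting intervals and black lines are group means; the abemaciclib libraries sit between 26.8 and 37.4 CPM and all others between 2.08 and 8.16 CPM.

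The spread of DHRS2 between libraries was compared with what read counting alone would give. Over the 12 libraries DHRS2 gathered 649 reads, of which 49 fell in DMSO, 430 with abemaciclib, 91 with fulvestrant and 79 with both. Counting of that many reads would give a coefficient of variation of 24.7% for DMSO, 8.35% for abemaciclib, 18.2% for fulvestrant and 19.5% for the combination. The measured values were 36.6%, 17.2%, 9.15% and 42.6%, each from 3 libraries. Among the 500 genes of most similar level, the median coefficient of variation was 24.9%, 8.97%, 20.4% and 20.9% in the same order. DHRS2 had a higher value than 77%, 93%, 14.2% and 93.6% of those genes, again in that order.

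The design allows the abemaciclib response of DHRS2 to be read without and with fulvestrant. Without it, the level rose from 3.45 to 31.5 CPM, a difference of 28.0 CPM. With it, the level went from 7.63 to 5.47 CPM, a difference of −2.16 CPM and a log2 fold change of −0.45 ± 0.28 (SE). Leaving out combination replicate 3 made that value −0.89, and leaving out combination replicate 2 made it −0.26, so its size depended on single libraries while its sign did not. The interaction, which is the second log2 fold change minus the first, was −3.57 ± 0.38 (SE), or 11.9-fold, the 11th lowest of the 11803 genes. If the separate log2 changes of the 2 drugs had added up, the combination would have stood at 69.5 CPM. The lowest correlation between fulvestrant libraries was 0.9703, against a highest of 0.9763 with a library of another group. Without fulvestrant replicate 3 the interaction of DHRS2 was −3.65. The interaction then passed for 3318 of 12069 genes, against 2493 of 11803 in the full fit.

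Many genes shared the direction of this pattern. Abemaciclib raised 20.5% and lowered 20.7% of the genes tested, and fulvestrant raised 25.3% and lowered 25.7% (edgeR quasi-likelihood test, adjusted p under 0.05). Adding abemaciclib to fulvestrant raised only 0.297% and lowered 1.63%. The interaction was positive for 9.49% and negative for 11.6% of genes, or 1120 and 1373 genes. With scaling by library totals 1626 of 2646 interaction calls were positive, and the interaction of DHRS2 kept its sign. Both higher expression under abemaciclib and a negative interaction, the combination that describes DHRS2, were found in 1275 genes or 10.8% of those tested, and both were at least 2-fold in 358. Because both measures contain the abemaciclib and DMSO libraries, their joint count is a description.

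**Figure D2:**
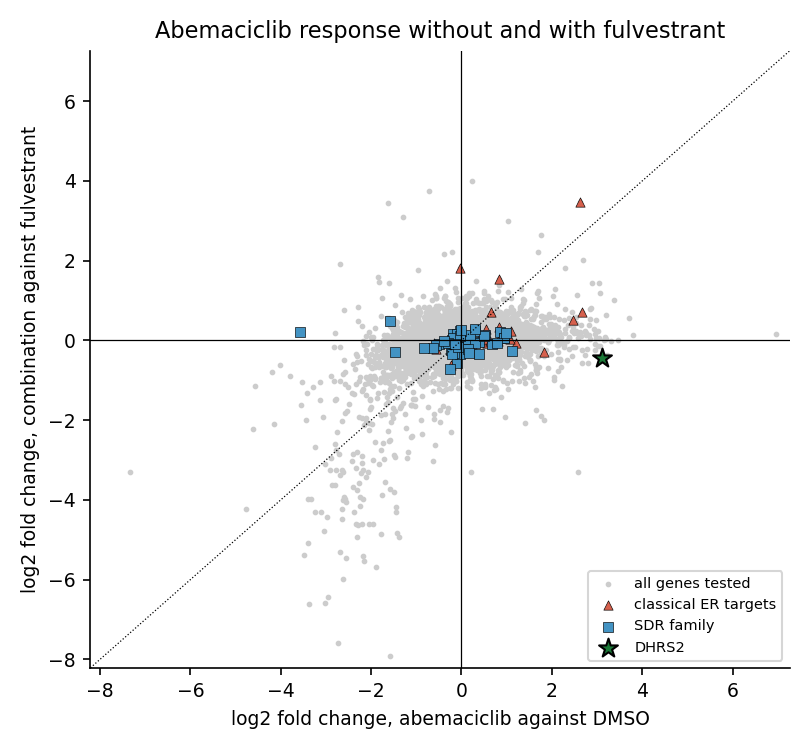
Log2 fold change of abemaciclib against DMSO (horizontal axis) and of the combination against fulvestrant (vertical axis) for the 11803 genes tested, with DHRS2 as a star, the SDR family as squares and classical ER targets as triangles. DHRS2 lies far right at 3.12 and slightly under 0 at −0.45, away from the dotted line on which both responses are equal.

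The enzymes related to DHRS2 did not move as a group. The short-chain dehydrogenase/reductase (SDR) list held 65 genes besides DHRS2, of which 46 were tested. Under abemaciclib 11 rose and 8 fell, against backgrounds of 20.5% and 20.7%, and the median log2 fold change was −0.04 against 0.00 over all genes. Under fulvestrant 10 rose and 14 fell, or 21.7% and 30.4% against 25.3% and 25.7% of all genes. The interaction was positive for 5 and negative for 5, or 10.9% each way, near the 9.49% and 11.6% of all genes. The positive ones were RDH16, CBR1, DHRS13, HSD17B10 and RDH11, and the negative ones DHRS7, DHRS12, CBR4, QDPR and HSD3B7. In the combination against fulvestrant 0 of 46 passed by edgeR or by DESeq2, and 3 had an unadjusted p under 0.05. Over all genes 0.297% rose and 1.63% fell there, so few or no calls would be expected in a list this short.

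DHRS7, an endoplasmic reticulum member of the family, had the pattern nearest to DHRS2 among them. Its mean level was 42.6 ± 5.03 CPM in DMSO, 92.5 ± 7.70 with abemaciclib, 65.2 ± 19.1 with fulvestrant and 53.8 ± 7.35 with both (SD, n = 3). The log2 fold change under abemaciclib was 1.11 ± 0.19 (SE, edgeR adjusted p = 0.000327) and the interaction was −1.39 ± 0.26 (adjusted p = 0.00223). Its correlation with DHRS2 over the 12 libraries was 0.816, the highest in the list.

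QDPR, which regenerates the pterin cofactor of the aromatic amino acid hydroxylases, rose by 0.98 with abemaciclib on the log2 scale and by 1.15 with fulvestrant (adjusted p = 1.59e-06 and 6.03e-08). Unlike DHRS2, it stayed high with both drugs, at 57.7 ± 5.73 CPM. Other members fell. CBR1, a cytosolic carbonyl reductase, went from 22.1 ± 2.19 CPM in DMSO to 7.33 ± 1.42 with abemaciclib (log2 fold change −1.59 ± 0.24, adjusted p = 5.4e-06), and its interaction was positive at 2.08. DHRS13 fell by 1.47 under abemaciclib on the log2 scale (adjusted p = 3.17e-10).

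DHRS4 and its duplicate DHRS4L2, which lie in the same chromosomal region as DHRS2, were poorly expressed. DHRS4 held 1.19, 3.42 and 2.48 CPM in DMSO and 1.80, 1.32 and 4.04 CPM in abemaciclib, so the groups overlapped. Its log2 fold change was −0.10 ± 0.52 (SE, adjusted p = 0.898), and 0.52 after thinning all libraries to the smallest total. For DHRS4L2 the value was 0.01 ± 0.36 (adjusted p = 0.984), with means of 4.26 and 4.22 CPM, and its sign changed with DESeq2, library totals, the replicate block and thinning. DHRS4L1 had 1 read in all libraries. The 2 tested copies are near-identical to each other in part, so reads could be split between them, and at these depths only large changes would have been seen.

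The list of other carbonyl and quinone enzymes held 25 genes, of which 18 were tested. Under abemaciclib 5 rose (ALDH1A3, GLO1, ALDH2, ALDH3B2 and ALDH7A1) and 4 fell (NQO1, NQO2, ALDH9A1 and PARK7), or 27.8% and 22.2% against 20.5% and 20.7% of all genes, while under fulvestrant 10 rose and 3 fell (NQO1, NQO2 and PARK7), against 25.3% and 25.7% of all genes. The interaction was negative for ALDH1A3, GLO1, ALDH2 and ALDH3B2 and positive for NQO1, against 11.6% and 9.49%. In the combination against fulvestrant 0 of 18 passed by edgeR or DESeq2, against 0.297% higher and 1.63% lower over all genes. An unadjusted p under 0.05 was found for 6. The quinone reductases NQO1 and NQO2 fell by 0.74 and 0.70 under abemaciclib on the log2 scale (adjusted p = 1.31e-08 and 7.19e-05). GLO1, which clears methylglyoxal with glutathione, rose by 0.44 and the mitochondrial aldehyde dehydrogenase ALDH2 by 0.38 (adjusted p = 1.83e-05 and 0.000726).

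The genes around DHRS2 were examined next. Within 500 kb of its ends the annotation lists 57 genes, of which 39 were in the count table and 18 were tested. Under abemaciclib 5 rose (EFS, HOMEZ, ZFHX2, DHRS4-AS1 and AP1G2) and 5 fell (NRL, EMC9, PPP1R3E, PCK2 and PSME1), or 27.8% each way, near the 20.5% and 20.7% of all genes. The count of 10 was 4 to 6 without DMSO replicate 1 or 3 or any one abemaciclib replicate. Under fulvestrant 4 rose (BCL2L2, HOMEZ, DHRS4-AS1 and DCAF11) and 3 fell (EMC9, PCK2 and PSME1), or 22.2% and 16.7% against 25.3% and 25.7%. The interaction passed for 1 of the 18, or 5.56%, against 11.6% negative and 9.49% positive over all genes. This was SLC22A17, an organic cation transporter family gene, at −1.01. None passed without abemaciclib replicate 1, and 2 did without DMSO replicate 2 or 3. In the combination against fulvestrant 0 passed by edgeR or DESeq2, against 0.297% higher and 1.63% lower over all genes. An unadjusted p under 0.05 was found for 4.

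The nearest tested neighbour upstream of DHRS2 was AP1G2, a clathrin adaptor subunit gene 62.0 kb away. It stood at 9.81 ± 1.17 CPM in DMSO and 14.3 ± 1.28 in abemaciclib, a log2 fold change of 0.56 ± 0.19 (SE, edgeR adjusted p = 0.0222), and the call was lost with DESeq2 (adjusted p = 0.0584), after thinning (0.11), without DMSO replicate 3 (0.0984) and without abemaciclib replicate 1 (0.0831) or 2 (0.0583). The nearest downstream was the antisense RNA gene DHRS4-AS1, 292.6 kb away, with a log2 fold change of 0.57 ± 0.19 (adjusted p = 0.0153). It overlaps DHRS4, and whether counting used the strand was not stated. Without abemaciclib replicate 3 the adjusted p was 0.0706. Other neighbours with changes under abemaciclib were the adaptor gene EFS at 0.93, the homeobox gene HOMEZ at 0.80, the glycogen phosphatase subunit gene PPP1R3E at −0.86 and EMC9, of the endoplasmic reticulum membrane complex, at −0.99 (adjusted p = 0.0137, 0.0173, 0.00755 and 8.09e-05). NRL, a retinal transcription factor gene at 2.78 CPM in DMSO, had −1.17 (adjusted p = 0.0477). The calls of EFS and HOMEZ were each lost when DMSO replicate 2 or abemaciclib replicate 2 was left out, that of EFS also without DMSO replicate 1 and that of HOMEZ also after thinning.

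**Figure D3:**
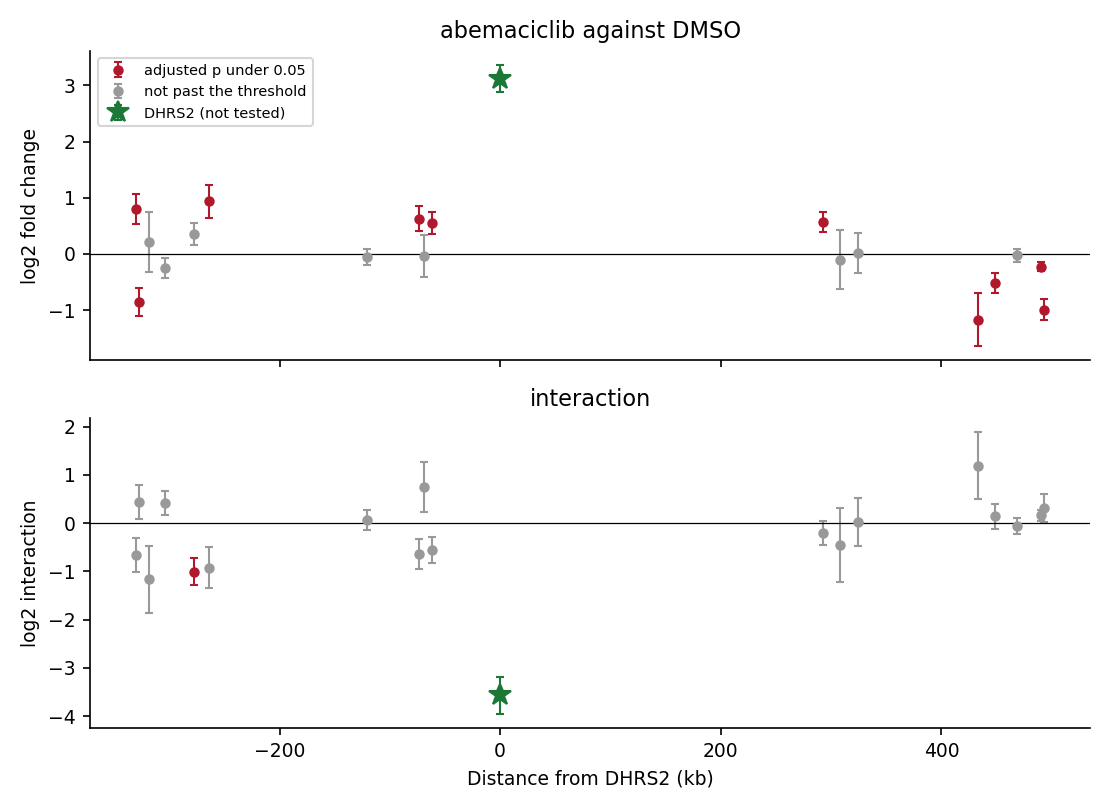
Log2 fold change of abemaciclib against DMSO (top) and the log2 interaction (bottom) for DHRS2 and the 18 tested genes within 500 kb, by distance from DHRS2 in kb (negative is upstream). Points are fitted values with SE bars and red marks an adjusted p under 0.05; DHRS2 stands at 3.12 and −3.57 while its neighbours lie closer to 0.

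The regulators and partners described for DHRS2 were read in the same libraries. MYB, the transcription factor described as acting on DHRS2, held 26.7, 25.3 and 19.4 CPM in DMSO and 33.2, 30.5 and 30.6 CPM in abemaciclib. These groups did not overlap. Its log2 fold change was 0.41 ± 0.14 (SE, edgeR adjusted p = 0.0164), and the adjusted p was 0.125 without DMSO replicate 3 and 0.0669 without abemaciclib replicate 1. With fulvestrant MYB stood at 23.6 ± 1.00 CPM and with both drugs at 25.2 ± 0.48 CPM, and its interaction of −0.32 did not pass (adjusted p = 0.26).

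MDM2, whose product binds p53 and has been described to bind the DHRS2 protein, stood at 124 ± 13.0 CPM in DMSO and 120 ± 6.83 in abemaciclib (log2 fold change −0.06 ± 0.09, adjusted p = 0.619). Over the whole list of 23 genes for MYB, the MDM2 axis and histone deacetylase (HDAC) complexes, 3 rose (SIN3B, MTA1 and MYB) and 10 fell under abemaciclib, or 13% and 43.5% against 20.5% and 20.7% of all genes. Under fulvestrant 2 rose, among them the corepressor gene NCOR1, and 9 fell, against 25.3% and 25.7%. Relative to fulvestrant the combination lowered 1, SAP30, against 1.63% of all genes. The interaction was positive for 6 and negative for 1, SIN3B, against 9.49% and 11.6%.

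HDAC complex members moved in both directions. HDAC1, a catalytic deacetylase, held 70.1 ± 3.55 CPM in DMSO, 41.3 ± 2.31 with abemaciclib, 52.8 ± 6.31 with fulvestrant and 49.5 ± 3.90 with both, with a log2 fold change of −0.77 ± 0.11 under abemaciclib (adjusted p = 2.17e-06). SAP30, a subunit of the SIN3 deacetylase complex, fell by 1.69 under abemaciclib and KDM1A, a histone demethylase, by 0.56 on the log2 scale (adjusted p = 4.77e-09 and 0.00284). SIN3B, a scaffold of the SIN3 complexes, went the other way and followed DHRS2. Its level was 34.8 ± 1.11 CPM in DMSO, 63.0 ± 3.08 with abemaciclib, 37.2 ± 0.56 with fulvestrant and 39.3 ± 1.14 with both. The interaction of SIN3B was −0.77 ± 0.15 (adjusted p = 0.000477) and its correlation with DHRS2 was 0.932.

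Among 25 tested p53 target genes, 9 rose and 3 fell (DDB2, PPM1D and AEN) under abemaciclib, against 20.5% and 20.7% of all genes. Under fulvestrant 12 rose and 4 fell (AEN, DDB2, TNFRSF10B and CCNG1), against 25.3% and 25.7%. The interaction was negative for 8 and positive for AEN and PPM1D, against 11.6% and 9.49%. The combination raised 1 over fulvestrant, the RNA-binding protein gene ZMAT3, against 0.297% of all genes. The median log2 fold change of the list under abemaciclib was 0.20. GDF15, a secreted stress-response cytokine, came nearest to DHRS2. It held 2.85 ± 0.59 CPM in DMSO, 27.3 ± 3.64 with abemaciclib, 3.21 ± 1.00 with fulvestrant and 2.42 ± 1.88 with both. Its log2 fold change was 3.22 ± 0.28 under abemaciclib (adjusted p = 7.59e-10) and its interaction −3.59 ± 0.52 (adjusted p = 1.53e-05), beside 3.12 and −3.57 for DHRS2. GDF15 was not called under fulvestrant alone (log2 fold change 0.14 ± 0.40, adjusted p = 0.8). The value of DHRS2 there, which was not tested, was 1.07 ± 0.30 (SE).

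CDKN1A, TP53INP1 and BTG2 remained above the DMSO level when the drugs were combined. CDKN1A, the inhibitor of cyclin-dependent kinases, stood at 15.2 ± 1.39 CPM in DMSO, 46.4 ± 1.70 with abemaciclib, 132 ± 10.1 with fulvestrant and 116 ± 4.25 with both. TP53INP1, a stress-response gene, went from 11.2 to 38.1, 73.7 and 80.6 CPM in the same order. BTG2, an antiproliferative gene, rose by 2.33 under abemaciclib and by 2.44 under fulvestrant on the log2 scale (adjusted p = 6.43e-05 and 2.38e-05). All 3 had a negative interaction (log2 −1.78, −1.60 and −2.35), but their combination level was close to or above that with abemaciclib, which for DHRS2 it was not.

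Genes linked to cell cycle exit moved with either drug. Of 25 tested, 13 rose and 4 fell (among them CDKN1C, CDKN2D and CDKN1B) under abemaciclib, against 20.5% and 20.7% of all genes, with a median log2 fold change of 0.31. Under fulvestrant 18 rose and CDKN1B fell, against 25.3% and 25.7%. Relative to fulvestrant the combination lowered the antiproliferative gene TOB1 only, against 1.63% of all genes. The interaction was negative for 9 and positive for 2, among them CDKN2D, against 11.6% and 9.49%. TXNIP, an inhibitor of thioredoxin, stood at 128 ± 17.3 CPM in DMSO, 374 ± 24.9 with abemaciclib, 754 ± 118 with fulvestrant and 741 ± 20.5 with both. CDKN2B, another kinase inhibitor, rose by 1.89 under abemaciclib and 2.12 under fulvestrant (adjusted p = 1.27e-09 and 5.3e-11). The transcription factor gene CEBPD did not stay high and stood at 5.18, 10.3, 4.59 and 3.18 CPM in DMSO, abemaciclib, fulvestrant and combination.

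MKI67, a marker of dividing cells, ordered the groups differently from DHRS2. Its level was 511 ± 52.4 CPM in DMSO, 54.2 ± 4.74 with abemaciclib, 43.7 ± 2.29 with fulvestrant and 2.21 ± 0.40 with both. The group with the least MKI67 was the combination, in which DHRS2 lay within the DMSO range in replicates 1 and 2 and above it in replicate 3. Whether the level of DHRS2 follows cell division was not tested.

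Classical ER targets were compared with DHRS2 because fulvestrant removes the receptor that drives them. Of 24 tested, 18 rose and 2 fell (RET and ELOVL2) under abemaciclib, against 20.5% and 20.7% of all genes. Under fulvestrant 5 rose (CTSD, RARA, KRT19, CELSR2 and AREG) and 14 fell, against 25.3% and 25.7%. The 2 responses had medians of 0.65 and −1 on the log2 scale. The interaction was negative for 11, against 11.6% of all genes, and positive for 0 by edgeR, with 1 positive at an unadjusted p under 0.05 and 0 positive by DESeq2. In the combination against fulvestrant 0 of 24 passed by either tool, and 6 had an unadjusted p under 0.05. Over all genes 0.297% rose and 1.63% fell there, so a lack of calls among 24 genes is not particular to ER targets.

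TFF1, a secreted trefoil peptide, showed the widest swing among the named targets. It held 62.3, 57.2 and 62.0 CPM in DMSO, 367, 382 and 395 CPM in abemaciclib, 1.73, 1.97 and 0.68 CPM in fulvestrant, and 1.93, 2.90 and 2.14 CPM in the combination. Fulvestrant alone thus lowered TFF1 by 5.38 on the log2 scale (adjusted p = 1.4e-18), whereas DHRS2 was 2.10-fold above DMSO. TFF3 and STC2 rose by 2.47 and 1.84 under abemaciclib and fell by 1.76 and 1.46 under fulvestrant. CCND1, which encodes cyclin D1, rose by 1.10 and fell by 1.66. GREB1 rose by 0.65 and fell by 4.11, and its interaction was 0.07 (adjusted p = 0.881). ESR1, which encodes the receptor, had a log2 fold change of 0.14 under abemaciclib (adjusted p = 0.226) and 0.04 under fulvestrant (adjusted p = 0.768).

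CTSD, the lysosomal protease cathepsin D, rose under each drug alone. It held 175 ± 16.2 CPM in DMSO, 405 ± 14.9 with abemaciclib, 283 ± 47.3 with fulvestrant and 269 ± 7.48 with both. The changes were 1.21 and 0.69 on the log2 scale, and its interaction was −1.28 ± 0.13 (adjusted p = 1.42e-07). The correlation of CTSD with DHRS2 was 0.887, that of CELSR2 was the highest in the list at 0.93, and the median over the 24 ER targets was 0.565 against 0.00 over all genes.

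**Figure D4:**
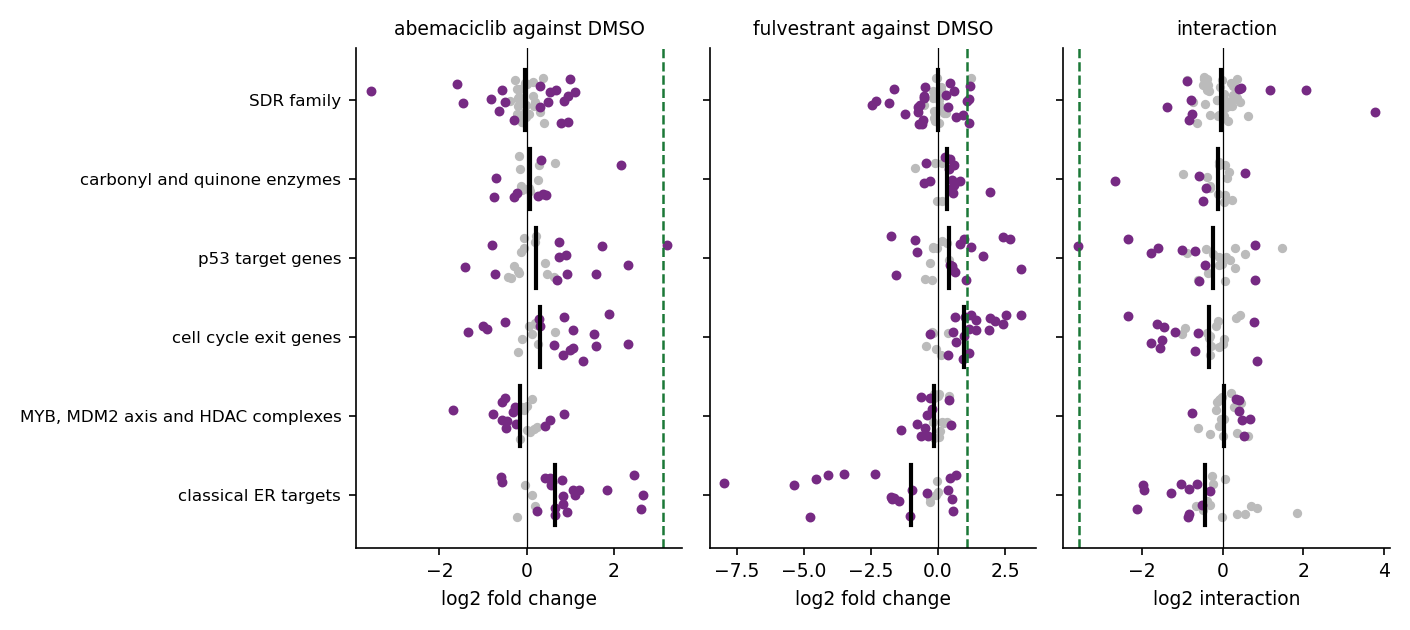
Log2 fold change (horizontal axes) of each tested gene in the 6 gene lists (rows) under abemaciclib, under fulvestrant and for the interaction. Purple points have an adjusted p under 0.05, grey points do not, black bars are list medians, and the dashed green line is DHRS2 at 3.12, 1.07 and −3.57; the ER targets have medians of 0.65 under abemaciclib and −1 under fulvestrant.

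The genes whose pattern was most like that of DHRS2 were found by correlating log2 CPM over the 12 libraries. Libraries of a group share their treatment, so the correlations mainly order group means and carry no test. Of 11802 genes, 49 had a correlation above 0.9 and 24 one below −0.9. The 10 highest lay between 0.94 and 0.964, and 9 of them are TMPRSS3, KCTD10, MCCC2, PREX1, DMKN, SPTSSB, S100A8, SKIL and CLIC3. All 10 had every abemaciclib library above every other library, as DHRS2 did, which choosing them by correlation with DHRS2 favours. The choice of these 10 depended on the measure: 0 of them were among the 10 highest by rank correlation, and 5 to 9 remained when single libraries were left out.

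Most of the genes correlated with DHRS2 changed less than it did. TMPRSS3, a transmembrane serine protease gene, held 24.7 ± 3.62, 48.8 ± 2.90, 30.4 ± 3.24 and 26.2 ± 1.02 CPM in DMSO, abemaciclib, fulvestrant and combination. PREX1, a Rac exchange factor gene, had a log2 fold change of 1.63 under abemaciclib, and SKIL, a repressor of SMAD signalling, 0.91. MCCC2, a leucine-degrading carboxylase subunit gene, had 0.66, and KCTD10, a ubiquitin ligase adaptor gene, had 0.64. DMKN, which encodes the secreted protein dermokine, also had 0.64, and SPTSSB, of the enzyme that starts sphingolipid synthesis, had 1.03.

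CLIC3 and S100A8 came closest to DHRS2 in size among these 10. CLIC3, a chloride channel family gene, held 7.42, 6.46 and 5.79 CPM in DMSO and 35.01, 33.1 and 30.3 CPM in abemaciclib. With fulvestrant it held 9.39, 10.7 and 12.8 CPM and with both drugs 9.38, 5.38 and 8.93 CPM, so that its combination libraries also overlapped the DMSO range. S100A8, a calcium-binding protein gene best known from myeloid cells, stood at 4.06 ± 0.17, 18.4 ± 0.90, 5.43 ± 1.38 and 5.01 ± 0.22 CPM in the 4 groups.

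A second measure, the distance between the 3 fitted log2 fold changes against DMSO, named 5 other genes. These were IL32, AQP3, ALOX5AP, OLFML3 and TUBA1A, at distances of 0.394 to 0.71 log2 units from DHRS2, and 0 genes were in both lists. OLFML3, which encodes a secreted matrix protein, held 23.6 ± 2.19 CPM in DMSO, 163 ± 15.3 with abemaciclib, 59.7 ± 9.88 with fulvestrant and 51.7 ± 3.02 with both, a higher level than DHRS2 with log2 fold changes of 2.79, 1.33 and 1.13 beside its 3.12, 1.07 and 0.62. TUBA1A, an alpha-tubulin gene with near-identical relatives, held 4.07 ± 1.28, 34.8 ± 2.62, 10.1 ± 1.58 and 10.4 ± 0.93 CPM. AQP3, a water and glycerol channel, held 3.71 ± 1.04, 26.9 ± 7.06, 10.3 ± 5.88 and 6.98 ± 3.53 CPM. IL32, a cytokine gene, went from 0, 6 and 3 reads in DMSO to 31, 28 and 19 in abemaciclib. ALOX5AP, a helper of leukotriene synthesis, had at most 3 reads in any DMSO library and 15 to 20 in abemaciclib, so the fitted folds behind its distance and its plotted line depend on the model and are no bounds.

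**Figure D5:**
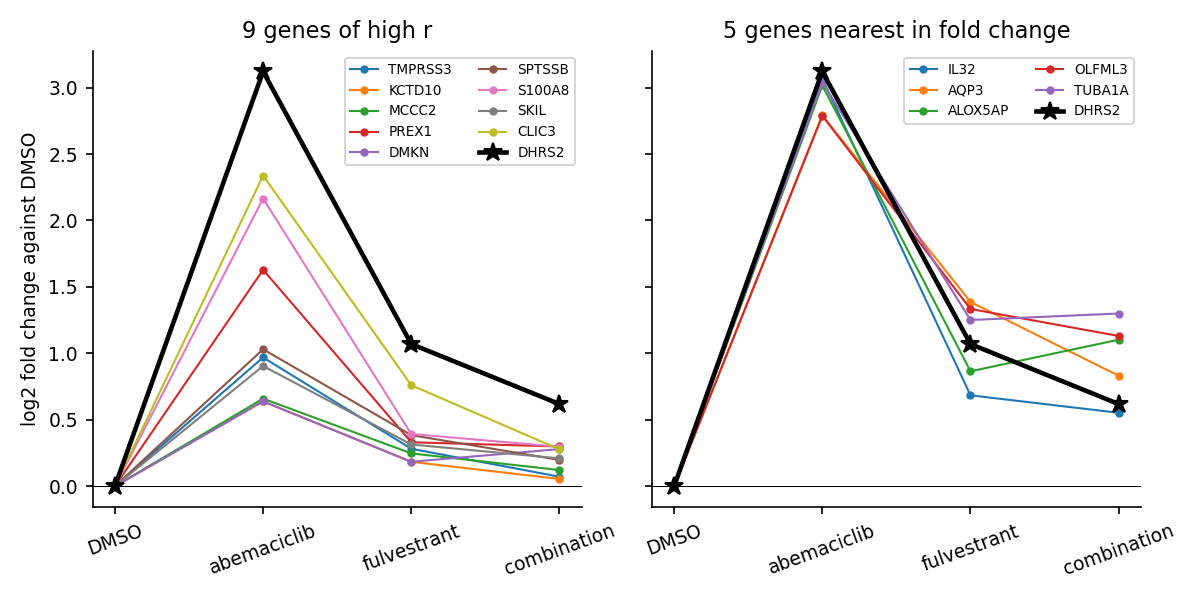
Fitted log2 fold change against DMSO (vertical axis) in the 4 treatment groups (horizontal axis) for DHRS2 (black stars) and 9 of the 10 genes of highest correlation (left) or the 5 nearest by distance (right). All lines peak under abemaciclib; DHRS2 is at 3.12, 1.07 and 0.62 under abemaciclib, fulvestrant and both.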

How the data were processed

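The authors deposited a table of unnormalised counts by gene symbol for 12 libraries made with a 3′ kit that primes on polyadenylated RNA. Per the study's methods, reads were trimmed, aligned to GRCh38 (hg38) with STAR and counted with featureCounts 2.0.1 on a GENCODE annotation; use of the strand is not given in the sources used here. No molecular identifiers are named, so counting intervals cover counting error only. Of 60656 rows, 44 had no gene name and carried 0 reads; they were left out.

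Counts were fitted in R 4.3.3 with edgeR 4.0.16: filterByExpr by group (minimum count 10, minimum total 15), TMM factors, 4 group means, no covariate and robust quasi-likelihood F tests, adjusted by Benjamini-Hochberg over all 11803 genes at 0.05. The common biological coefficient of variation was 0.0918. Standard errors came from the F statistic. Correlations used log2 CPM with a prior count of 2. DHRS2 received no test. The replicates are labelled as separate samples of a group, and nothing in the labels names separate cultures. The paper describes the replicates of its cell-line RNA sequencing as independent cultures. The p-values measure the spread between these libraries. No 2 replicates agreed within sampling noise (chi-square per gene 1.85 or more).

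DHRS2, the 6 gene lists and the markers were chosen with earlier results of these data known. The lists held 195 different genes, 4 of them in more than 1 list. Genes named were DHRS2, the 10 of highest correlation, the 5 nearest by distance, up to 4 per list or among neighbours that passed under abemaciclib or for the interaction (mean of at least 5 CPM, largest change under abemaciclib), a preset group of DHRS4 relatives, regulators, ER targets and MKI67, and the nearest tested gene on each side. Other genes named to spell out a count of 5 or fewer, and SLC22A17 and CEBPD, were chosen after their values were seen. Not every gene or sequence this rule selects is reported here.

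Gene positions are from GENCODE v44 on GRCh38, and promoter shares from the RefSeq promoter table on GRCh38.p14. Alternatives were DESeq2 1.42.0, upper-quartile factors, library totals, 2 other filters, a replicate block, only the groups compared, thinning to the smallest total, leaving out each library and, added after seeing the data, leaving out mitochondrial transcripts. The fits were tested on simulated data.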

Additional observations from a re-analysis of the deposited data

Results flagged for a closer look

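A difference of the abemaciclib response between cells without and with fulvestrant was tested by the interaction term of the model (edgeR quasi-likelihood test, adjusted over all genes), and the 22 genes given here passed. Further genes listed by name beside an interaction count passed too. DHRS2 itself was chosen for this difference and is not among them. Values are log2 interactions, and the responses without and with fulvestrant are log2 fold changes.

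Nearest to DHRS2 in the size of the interaction was GDF15, a stress-response cytokine, at −3.59 (adjusted p = 1.53e-05). Its response went from 3.22 without fulvestrant to −0.36 with it. In the SDR family DHRS7 had −1.39, QDPR −0.80, DHRS13 1.17 and CBR1 2.08, the last from −1.59 without fulvestrant to 0.49 with it. Among other carbonyl and quinone enzymes GLO1 had −0.41, ALDH2 −0.58 and NQO1 0.55. For genes of growth arrest, BTG2 had −2.35, CDKN1A −1.78, CDKN2B −1.64, TP53INP1 −1.60 and TXNIP −1.57. Of the ER targets, STC2 had −2.12, TFF3 −1.97, TFF1 −1.95, CTSD −1.28 and CCND1 −0.86. The receptor gene ESR1 had −0.37 (adjusted p = 0.0434), and this call was lost with DESeq2 (adjusted p = 0.0834), with library totals, without a filter, after thinning and without any of 8 single libraries. SIN3B had −0.77 and HDAC1 0.68. MKI67 had −1.06, from −3.24 without fulvestrant to −4.30 with it, so that unlike the others of negative sign its response was a fall that became deeper.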

How the results depend on the processing

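DHRS2 kept its direction in all 120 values recomputed under the alternatives, and 115 of them moved by less than the spread between replicates. These values reuse the libraries by which DHRS2 was chosen, so the count is a description. Some of them leave out a library that their contrast does not use, and such values could hardly move. The replicate block gave a log2 fold change of 3.11 under abemaciclib and an interaction of −3.56. The replicate numbers did not pair the samples (correlations of deviations from −0.215 to 0.119), and the block changed no call of a list by over 1.5 times. On the CPM scale, without a logarithm, the interaction was −30.2 CPM. The filter asking for 10 counts in every library removed DHRS2, so it could not be fitted there.

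With single libraries left out, DHRS2 ranged from 2.92 to 3.37 for abemaciclib against DMSO, 0.873 to 1.33 for fulvestrant against DMSO, 0.192 to 0.87 for the combination against DMSO, −2.93 to −2.3 for the combination against abemaciclib, −0.888 to −0.255 for the combination against fulvestrant and −4.01 to −3.38 for the interaction. For the 4 of these that use combination libraries, the value furthest from the full fit came without combination replicate 3. Neighbours called ranged from 4 to 10 under abemaciclib and 0 to 2 for the interaction. Of the 10 most correlated genes 5 to 9 were shared, and 0 with Spearman's rho.

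Of 1542 values of other named genes, 1490 kept their call, 26 lost it, 1 gained it and 25 changed sign. The sign changes were in values that did not pass the threshold. DHRS4 under abemaciclib was 0.521 after thinning. DHRS4L2 under abemaciclib was −0.00621 with DESeq2, −0.0531 with library totals, −0.0106 with the replicate block and −0.472 after thinning. The interaction of MDM2 was 0.0892 with library totals. With single libraries left out, the abemaciclib response ranged from −0.649 to 0.266 for DHRS4, −0.242 to 0.346 for DHRS4L2 and −0.115 to 0.0302 for MDM2, and the interaction from −1.26 to 0.0889 for DHRS4, −0.308 to 0.28 for DHRS4L2, −0.115 to 0.03 for MDM2 and −0.0623 to 0.213 for GREB1. With library totals, 1626 of 2646 interaction calls were positive, against 1120 of 2493 with TMM, and the median of all genes moved from −0.01 to 0.10. The causes were not tested. With 49 DHRS2 reads in DMSO and 79 in the combination, small differences between those groups were not detectable at this depth.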
